A study of Homo sapiens with 2 samples.

Results

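The small leucine-rich proteoglycans are a family of secreted matrix proteins, and 9 of them were followed here by gene symbol: DCN, BGN, ASPN, LUM, FMOD, PRELP, OMD, OGN and PODN. All 9 were found among the 38606 genes of the deposited count matrix. They were chosen as members of the family by name, with earlier results of these data known. Unique molecular identifiers (UMIs, which count captured RNA molecules) were summed over the cells of each library and of each of the authors' clusters and divided by the total of that library or group of cells to give CPM, the UMIs of a gene per 1000000 UMIs.

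These proteins carry a core of leucine-rich repeats, and most bear chondroitin, dermatan or keratan sulfate chains. They lie on collagen fibrils, where they set fibril diameter and spacing, and several bind growth factors of the TGF-beta family in the matrix. Decorin, the product of DCN, and lumican, the product of LUM, are typical matrix products of fibroblasts and of the stromal cells of fat tissue. The family is usually divided into classes: DCN, BGN and ASPN belong to class I, LUM, FMOD, PRELP and OMD to class II, OGN to class III and PODN to class V.

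The cells were commercial human mesenchymal stem cells from adipose tissue, grown to about 90% confluency and starved overnight in both groups. The TGFB1 group then received 10 ng/mL TGFB1 for 24 h, and the untreated group received no treatment. Each group was 1 library of 10x single-cell RNA sequencing, so the differences below have no replicate check and no test of the treatment was possible. The ratios compare these 2 libraries, and every interval covers counting error only.

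There were 12555 TGFB1 cells with 208991941 UMIs in all (median 15134 per cell) and 8101 untreated cells with 169011524 UMIs (median 19249 per cell). The libraries shared 18 cell barcodes, which was 0.143% of TGFB1 cells and 0.222% of untreated cells. All 11 genes of a TGFB1 response list were at least 1.5-fold higher in the TGFB1 library, against 8.45% of all genes at 5 CPM or more. The list was chosen with earlier results of these data known, so this is no independent check of the treatment. All 10 genes of a stromal list reached 5 CPM in at least 1 library. THY1 was at 610 CPM in TGFB1 cells and 800.1 CPM in untreated cells, and ENG at 7.85 and 6.67 CPM. An adipose progenitor list summed to 872 and 745 CPM, with PI16 at 74.9 and 10.1 CPM but DPP4 at 70.6 and 206 CPM. A cartilage list summed to 959 and 374 CPM, mostly COMP at 909 and 347 CPM. A tendon list summed to 319 and 210 CPM, mostly TNC. The fat cell marker ADIPOQ was at 0 UMIs in both libraries, and the endothelial marker PECAM1 was under 0.1 CPM in both. The leukocyte marker PTPRC was at 0.354 and 0.213 CPM. The 12 genes of a mural cell (vessel wall) list summed to 1768 CPM in the TGFB1 library and 421 CPM in the untreated library, of which the contractile genes ACTA2 and CNN1 made up most, and RGS5 was at 2.70 and 4.84 CPM. The 7 genes of a leukocyte list summed to 18.7 CPM in the TGFB1 library and 26.8 CPM in the untreated library, mostly CD68. In the same order, KRT18 of an epithelial list was at 80.2 and 35.1 CPM. Cells with a UMI of the division markers MKI67 or TOP2A made up 7.91% of TGFB1 cells and 17.4% of untreated cells. The part of these marker lists and of dividing cells in the library differences was not tested, apart from the values given below without dividing cells.

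The family's transcripts were less abundant in the TGFB1 library as a whole, but its members did not move alike. Summed over the 9 members, the level was 1431 CPM in the TGFB1 library and 2922 CPM in the untreated library, a ratio of 0.490 (95% interval 0.488 to 0.492). Of the 6 members that reached 5 CPM in either library, DCN, LUM and OGN were at least 1.5-fold lower with TGFB1, none was at least 1.5-fold higher, and BGN, PODN and ASPN lay within that range. Among all 10928 genes at 5 CPM or more, 14.2% were at least 1.5-fold lower and 8.45% at least 1.5-fold higher. At 2-fold the same 3 members were lower and none was higher, against 6.05% and 3.61% of all genes. LUM passed 2-fold narrowly, with a log2 ratio of -1.03 that was -0.87 with TMM scaling, -0.84 with median-of-ratios scaling and -0.79 without cluster 3, all short of 2-fold. The median log2 ratio was -0.70 over the 6 members and -0.10 over all genes at that minimum. FMOD, PRELP and OMD stayed under 5 CPM in both libraries and were not counted. OGN reached 5 CPM only in the untreated library, the one where it was higher, so the minimum itself favours a call as lower. With a minimum of 20 CPM, 2 of 4 members were lower, DCN and LUM, but the share of all genes at that minimum was not computed.

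**Figure D1:**
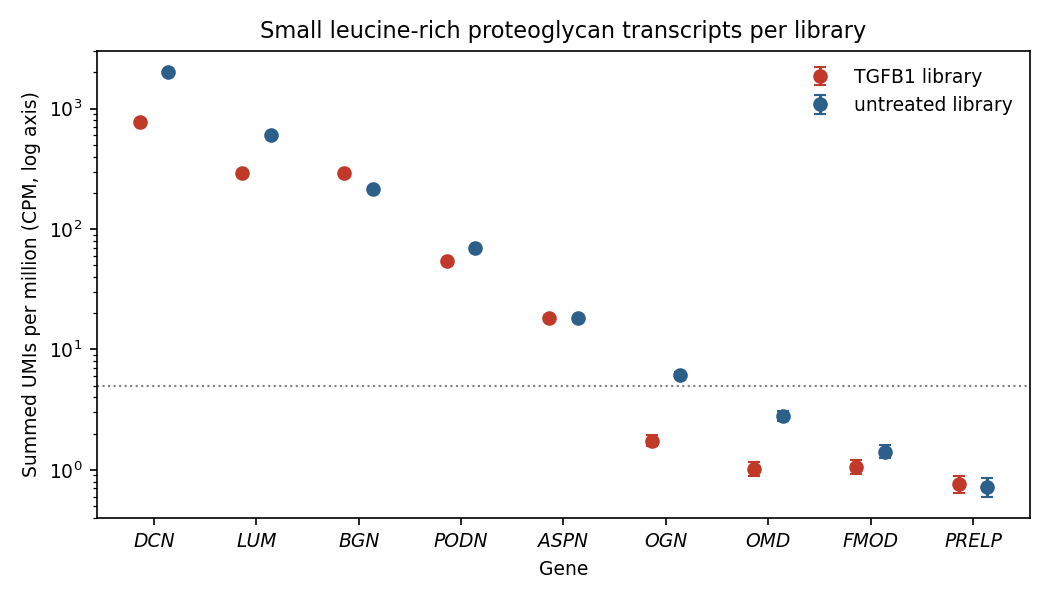
Level of each member in the TGFB1 library (left, red) and the untreated library (right, blue), in CPM on a log axis, with exact Poisson 95% intervals as bars and the 5 CPM minimum as a dotted line. DCN, LUM, OGN and OMD sit visibly lower in the TGFB1 library, BGN sits higher, and ASPN is at the same height in both.

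Among the class I members, DCN encodes decorin, which coats fibrillar collagen and binds TGF-beta. It had 161184 UMIs in TGFB1 cells and 339644 UMIs in untreated cells, or 771 CPM against 2009.6 CPM. This was 2.61-fold lower with TGFB1 (2.59 to 2.62), and 3.21% of the genes at 5 CPM or more had a lower ratio. DCN made up 53.9% of the members' UMIs in the TGFB1 library and 68.8% in the untreated library.

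BGN encodes biglycan, the closest relative of decorin, which also binds collagen and can signal through Toll-like receptors. It was at 289 CPM in the TGFB1 library, from 60473 UMIs, and at 214 CPM in the untreated library, from 36144 UMIs. The ratio was 1.35 (1.34 to 1.37), a log2 ratio of 0.44, so the level was higher with TGFB1 but short of the 1.5-fold threshold. Under edgeR's TMM scaling the log2 ratio of BGN was 0.59, and under median-of-ratios scaling it was 0.63; both pass 1.5-fold, and these scalings move the median of all genes by 0.16 and 0.20. BGN made up 20.2% of the members' UMIs in the TGFB1 library and 7.32% in the untreated library.

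ASPN encodes asporin, which lacks the attachment site for a sulfated chain and binds collagen and TGF-beta. It was at 18.2 CPM in the TGFB1 library and 18.3 CPM in the untreated library, a ratio of 0.996 (0.950 to 1.04). No difference was detectable at this depth, with 3802 and 3087 UMIs. The log2 ratio of -0.01 becomes 0.15 under TMM scaling and 0.19 under median-of-ratios scaling, so its sign rests on the scaling.

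Among the class II members, LUM encodes lumican, a keratan sulfate proteoglycan that regulates collagen fibril assembly. It was at 294 CPM in the TGFB1 library, from 61424 UMIs, and at 599 CPM in the untreated library, from 101270 UMIs. This was 2.04-fold lower with TGFB1 (2.02 to 2.06). Although both DCN and LUM were lower, LUM made up 20.5% of the members' UMIs in either library, since the family's sum was lower by about the same factor.

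The other class II members were sparse. OMD encodes osteomodulin, a matrix protein of bone, and had 212 UMIs in TGFB1 cells and 472 in untreated cells. Its level of 1.01 CPM in the TGFB1 library against 2.79 CPM in the untreated library was 2.75-fold lower (2.34 to 3.25). FMOD encodes fibromodulin, a collagen-binding proteoglycan of tendon and cartilage, and had 222 UMIs in TGFB1 cells and 240 in untreated cells, a ratio of 0.748 (0.620 to 0.902). PRELP encodes a proteoglycan that links collagen to basement membranes, and had 159 UMIs in TGFB1 cells and 122 in untreated cells, a ratio of 1.05 (0.827 to 1.35). The levels of FMOD and PRELP were near 1 CPM, and both depended on which clusters were counted, as described with the clusters.

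OGN, the class III member, encodes osteoglycin (mimecan), another small matrix protein of connective tissue. It had 365 UMIs in TGFB1 cells and 1035 in untreated cells, or 1.75 CPM against 6.12 CPM. This 3.51-fold lower level (3.11 to 3.96) was the lowest ratio among the members, and 1.62% of the genes at 5 CPM or more had a lower one. PODN, the class V member, encodes podocan, a matrix protein first described in kidney. It was at 53.8 CPM in the TGFB1 library and 69.9 CPM in the untreated library, a ratio of 0.771 (0.751 to 0.791), within the 1.5-fold range.

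The change in the makeup of the family showed most plainly in ratios between members, which do not depend on library scaling. There were 2.67 DCN UMIs per BGN UMI in the TGFB1 library (2.64 to 2.69) and 9.40 in the untreated library (9.30 to 9.50). DCN per LUM moved less, at 2.62 in the TGFB1 library and 3.35 in the untreated library. Set against type I collagen, the main fibrillar collagen, there were 0.0819 DCN UMIs per COL1A1 UMI in the TGFB1 library and 0.293 in the untreated library. LUM per COL1A1 was 0.0312 and 0.0873 in the same order, while BGN per COL1A1 was 0.0307 in the TGFB1 library and 0.0312 in the untreated library. BGN thus stood in nearly the same proportion to COL1A1 in both libraries, with overlapping intervals, and DCN and LUM in a lower one with TGFB1.

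The lower level of DCN was seen at the low, middle and high ends of the distribution over cells. To compare cells of unlike depth, each cell was thinned to 7500 UMIs, which kept 9330 TGFB1 cells and 7646 untreated cells and left out 3225 and 455 shallower ones. DCN was then seen in 94.8% of TGFB1 cells and 99.3% of untreated cells (96.5% and 99.2% before thinning), but the median cell held 5 DCN UMIs with TGFB1 and 13 untreated. The 10th to 90th percentiles were 1 to 12 UMIs in TGFB1 cells and 4 to 31 in untreated cells. A share of 7.75% of TGFB1 cells exceeded the untreated median. The distributions overlapped, with TGFB1 cells lower at the 10th, 50th and 90th percentiles.

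LUM showed a smaller shift of the same kind. It was seen in 76.7% of thinned TGFB1 cells and 89.8% of untreated cells (85.2% and 95.8% before thinning), with a median of 2 and 4 UMIs. The untreated median was exceeded by 14.1% of TGFB1 cells and 40.8% of untreated cells. BGN went the other way, with 83.2% of thinned TGFB1 cells and 69.8% of untreated cells holding a UMI (86.4% and 85.7% before thinning) and medians of 2 and 1. The share of cells above the untreated BGN median was 58.8% with TGFB1 and 43.0% untreated.

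**Figure D2:**
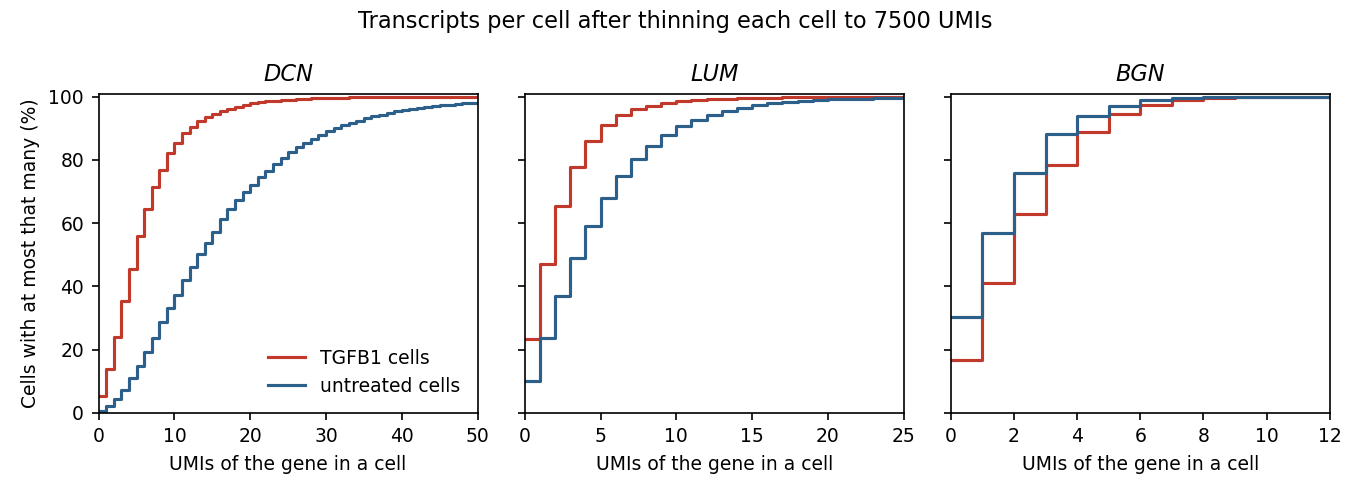
Share of cells (vertical axis, percent) that held at most a given number of UMIs of DCN, LUM or BGN (horizontal axis) after thinning to 7500 UMIs, with TGFB1 cells in red and untreated cells in blue. The red curve lies left of the blue one for DCN and LUM, with DCN medians of 5 and 13 UMIs, and right of it for BGN.

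The remaining members were seen in fewer cells. PODN was seen in 32.1% of thinned TGFB1 cells and 38.0% of untreated cells (47.8% and 65.0% before thinning), and ASPN in 12.2% and 11.8% (21.4% and 25.4% before thinning). OGN was seen in 1.32% of thinned TGFB1 cells and 4.53% of untreated cells (2.65% and 9.92% before thinning), and OMD in 0.750% and 2.29% (1.62% and 5.35%). FMOD was seen in 0.911% and 1.03% (1.60% and 2.51%), and PRELP in 0.332% and 0.589% (0.526% and 1.38%). The leukocyte gene PTPRC was seen in 0.247% of thinned TGFB1 cells and 0.209% of untreated cells (0.558% and 0.395%), with an interval that overlapped that of PRELP in TGFB1 cells and lay under those of FMOD in both libraries and PRELP in untreated cells. No cell type that should lack the members was identified, so the share that free RNA gives could not be measured for them. A thinned cell held a median of 3 of the 9 members in both libraries, and 46.4% of TGFB1 cells and 44.9% of untreated cells held exactly 3.

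The authors' clusters separated the libraries, and the members varied among them. Of the 11 clusters, numbers 0, 3, 4, 5 and 8 were nearly all TGFB1 cells and numbers 1, 2 and 6 nearly all untreated cells. Counting groups of at least 50 cells gave 9 clusters with TGFB1 cells and 5 with untreated cells. The clusters were made from the same cells and genes, so levels in them are a description.

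DCN was highest in untreated clusters 2, at 2252 CPM, and 1, at 2106 CPM, and next highest in the 56 TGFB1 cells of cluster 1, at 1729 CPM. The other TGFB1 clusters ran from 380.4 CPM in cluster 8 to 972 CPM in cluster 7, all under the lowest untreated cluster, number 6, at 1264 CPM. Clusters 6 and 8 were those richest in dividing-cell markers, at 885 CPM or more over the list. In the order of the 14 groups by DCN level, 4 of the 13 neighbouring pairs had overlapping counting intervals.

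LUM had another order. It was highest in cluster 7 in both libraries, at 701 CPM in TGFB1 cells and 1010.6 CPM in untreated cells, and lowest in the dividing clusters, at 149 CPM in TGFB1 cluster 8 and 309 CPM in untreated cluster 6. TGFB1 cluster 3, with 2543 cells and no untreated cell, was also low, at 159 CPM. The TGFB1 and untreated ranges of LUM overlapped, and 6 of its 13 neighbouring pairs had overlapping intervals.

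BGN varied least among TGFB1 groups, from 244 CPM in cluster 1 to 376 CPM in cluster 10, and from 149 CPM in cluster 6 to 296 CPM in cluster 7 among untreated groups. PODN ranged from 36.6 CPM in cluster 8 to 70.7 CPM in cluster 1 with TGFB1 and from 46.7 CPM in cluster 6 to 78.5 CPM in cluster 1 untreated. ASPN ranged from 11.1 CPM in cluster 8 to 40.3 CPM in cluster 10 with TGFB1 and from 7.97 CPM in cluster 6 to 24.5 CPM in cluster 7 untreated. DCN, LUM, ASPN and PODN thus had their lowest TGFB1 level in cluster 8, and these genes and BGN had their lowest untreated level in cluster 6.

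**Figure D3:**
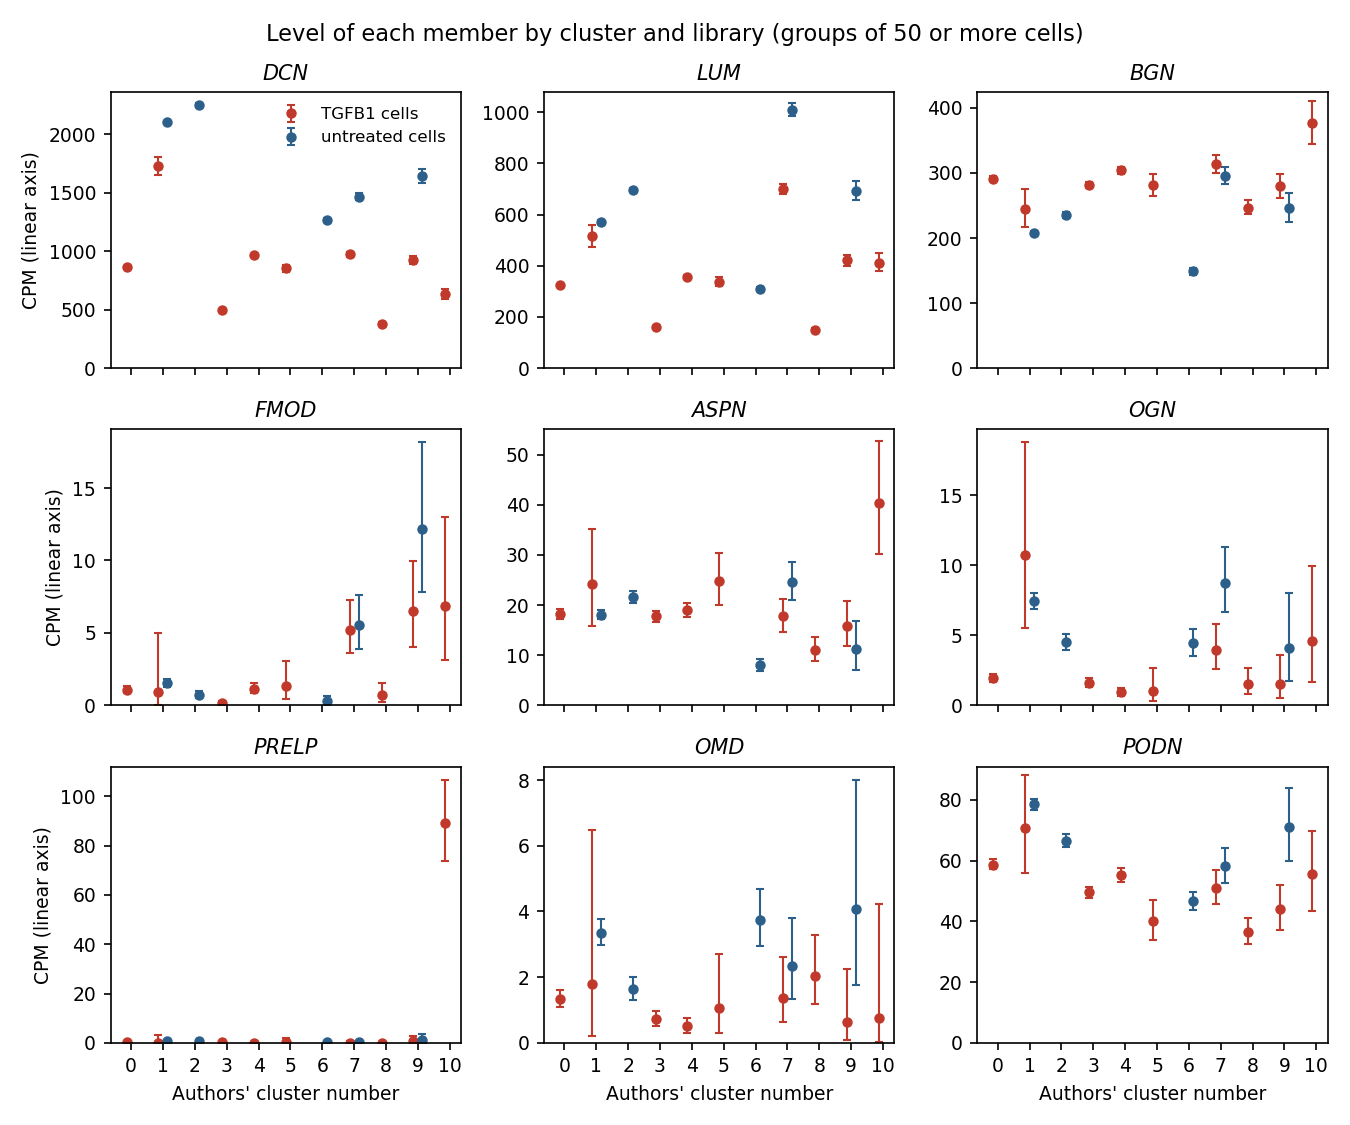
Level of each member (vertical axis, CPM on a linear axis from 0) in each of the authors' clusters (horizontal axis), with TGFB1 cells left in red and untreated cells right in blue, for groups of 50 or more cells and with exact Poisson 95% intervals. DCN is highest in untreated clusters 1 and 2, LUM in cluster 7, FMOD in clusters 7, 9 and 10, and PRELP in TGFB1 cluster 10.

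FMOD, sparse in the libraries as a whole, was concentrated in the small clusters 7, 9 and 10. It was at 5.21, 6.51 and 6.84 CPM in these clusters of TGFB1 cells and at 5.55 and 12.2 CPM in clusters 7 and 9 of untreated cells. Elsewhere it ranged from 0.152 CPM in TGFB1 cluster 3 to 1.55 CPM in untreated cluster 1. Without cluster 3, left out after the data were seen, the log2 ratio of FMOD between libraries was 0.00 in place of -0.42.

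Most PRELP UMIs of the TGFB1 library came from 1 group of cells. Cluster 10 of the TGFB1 library, with 113 cells, held 117 of that library's 159 PRELP UMIs, and its level there was 89.0 CPM (73.6 to 107). The other 8 TGFB1 groups lay between 0 and 0.929 CPM, and the 5 untreated groups between 0.146 and 1.02 CPM. A PRELP UMI was seen in 26.2% of the 84 thinned cells of cluster 10 (17.2% to 36.9%) and in 5 of 3640 thinned TGFB1 cells of cluster 0. Without cluster 10, a choice made after the data were seen, PRELP was at 0.202 CPM in TGFB1 cells and 0.672 CPM in untreated cells, 3.32-fold lower (2.31 to 4.85).

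The TGFB1 cells of cluster 10 also held the highest levels of several vessel wall markers and of the cartilage gene ACAN. MYH11, a smooth muscle myosin, was at 144 CPM in them and at 1.14 CPM or less in the other TGFB1 groups, and ACTA2 was at 4574 CPM. RGS5 was at 12.9 CPM, NOTCH3 at 31.2 CPM and the cartilage proteoglycan gene ACAN at 70.7 CPM. Not every gene of the mural list was highest there. CSPG4 was at 9.89 CPM, under its 11.9 CPM in TGFB1 cluster 8 and 12.1 CPM in untreated cluster 6. DES was at only 2.28 CPM in TGFB1 cluster 10. ABCC9, KCNJ8 and HIGD1B of the list were not followed by cluster. ASPN and BGN had their highest levels in TGFB1 cluster 10. The clustering used the same cells, so these values describe the group and name no cell type, and their part in the PRELP level was not tested.

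Only clusters 1, 7 and 9 held at least 50 cells of each library, so the libraries could be compared within them. In cluster 1, none of the 6 members at 5 CPM or more passed 1.5-fold in either direction, where 6.87% of genes were lower and 6.42% higher. DCN there was at 1729 CPM in TGFB1 cells and 2106 CPM in untreated cells, a log2 ratio of -0.28. The 56 TGFB1 cells of cluster 1 held less of the response genes than the largest TGFB1 cluster, number 0: IL11 was at 26.0 CPM in cluster 1 and 110 CPM in cluster 0, and ACTA2 at 237 and 1249 CPM, while untreated cells of cluster 1 had 2.80 CPM of IL11 and 144 CPM of ACTA2. The part of these lower response gene levels in the DCN value of cluster 1 was not tested.

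In cluster 7, DCN and OGN of 7 members at 5 CPM or more were at least 1.5-fold lower, where 4.95% of genes were lower and 5.03% higher. DCN was at 972 CPM in TGFB1 cells and 1464 CPM in untreated cells, 1.51-fold lower. OGN was at 3.98 and 8.76 CPM, a ratio of 0.454 (0.275 to 0.731), and reached 5 CPM only in the untreated cells. In cluster 9, DCN, LUM, PODN and FMOD of 6 members were at least 1.5-fold lower, where 17.8% of genes were lower and 9.69% higher. DCN was at 925 CPM in TGFB1 cells and 1641 CPM in untreated cells, 1.77-fold lower, and LUM at 421 and 692 CPM, 1.64-fold lower. The FMOD ratio in cluster 9 had an interval that reached 1.00.

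Within the 3 clusters the log2 ratios had the sign of the whole libraries for DCN, LUM, PODN and BGN. Their mean was smaller in size for DCN, LUM and BGN, and -0.35 against -0.38 between libraries for PODN. The sparse FMOD and OMD, with 1 and 2 TGFB1 UMIs in cluster 1, also kept their sign. Their means were not smaller in size, at -0.60 against -0.42 for FMOD and -1.46 in both for OMD. Averaged over the 3 clusters with equal weight, the log2 ratio was -0.57 for DCN and -0.47 for LUM, against -1.38 and -1.03 between whole libraries. For BGN it was 0.17, against 0.44 between libraries, and its interval in cluster 7 spanned a ratio of 1. The interval of PODN spanned 1 in clusters 1 and 7. OGN went both ways, at 10.7 CPM in TGFB1 cells and 7.45 CPM in untreated cells of cluster 1, a log2 ratio of 0.53 with an interval that spanned 1, and at -1.14 in cluster 7; in cluster 9 it had 5 and 8 UMIs and was under 5 CPM. ASPN had no common direction, with log2 ratios of 0.42, -0.47 and 0.50 in clusters 1, 7 and 9, and its interval spanned 1 in clusters 1 and 9. These clusters held 56, 303 and 183 of the 12555 TGFB1 cells, so most cells had no counterpart in the other library's clusters.

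Ratios between members varied among clusters too. DCN per BGN ranged from 1.54 in cluster 8 to 7.07 in cluster 1 among TGFB1 groups and from 4.95 in cluster 7 to 10.2 in cluster 1 among untreated groups. In cluster 7 the ratio was 3.10 with TGFB1 and 4.95 untreated, and in cluster 9 it was 3.31 and 6.68. DCN per LUM in cluster 7 was 1.39 with TGFB1 (1.33 to 1.44) and 1.45 untreated (1.41 to 1.49), under the other groups of both libraries, although the interval of TGFB1 cluster 10, at 1.53 (1.37 to 1.71), overlapped both. In cluster 7, then, LUM was high for its DCN in both libraries alike.

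**Figure D4:**
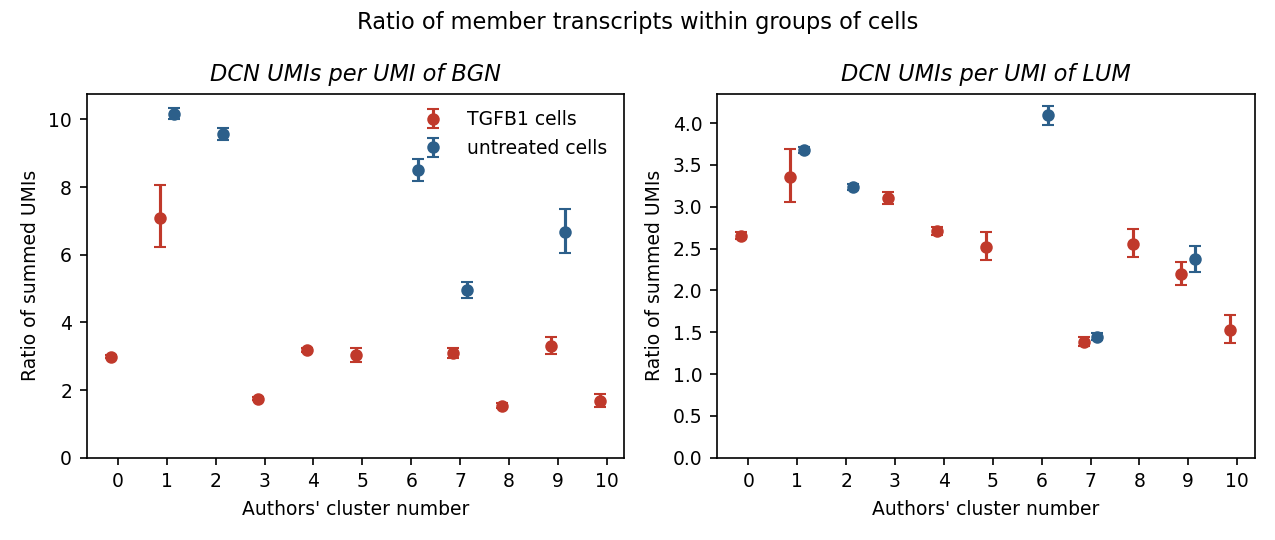
Ratio of summed DCN UMIs to BGN UMIs (left panel) and to LUM UMIs (right panel) by the authors' cluster number, with TGFB1 cells left in red and untreated cells right in blue and 95% counting intervals as bars. Every TGFB1 group except cluster 1 has a lower DCN per BGN ratio than every untreated group, and cluster 7 has the lowest DCN per LUM ratio in both libraries.

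Dividing cells held less of the larger members. Among TGFB1 cells, DCN was at 588 CPM in the 993 cells with a MKI67 or TOP2A UMI and 791 CPM in the rest, and among untreated cells at 1680.3 CPM in 1411 such cells and 2095 CPM in the rest. LUM was at 222 against 302 CPM with TGFB1 and 438 against 641 CPM untreated, and BGN at 255 against 293 CPM and 177 against 223 CPM. OMD was instead at 1.32 CPM in dividing TGFB1 cells against 0.981 CPM in the rest, with overlapping intervals, and at 3.88 against 2.51 CPM untreated, where they did not overlap. Cells with a marker UMI were also deeper, with a median of 17537 UMIs against 14953 in the other TGFB1 cells and 22179 against 18731 in the other untreated cells. Without these cells the log2 ratios between libraries were -1.40 for DCN, -1.09 for LUM and 0.39 for BGN.

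In the human genome several members lie side by side, and neighbours did not always share a direction. On chromosome 9 (GRCh38, GENCODE release 29), OGN (92383967 to 92404696), OMD (92414245 to 92424461), ASPN (92456205 to 92482506) and the related gene ECM2 (92493554 to 92536655) follow each other on the minus strand. Their log2 ratios were -1.81, -1.46, -0.01 and -1.27 in that order, so ASPN, between OMD and ECM2, was the 1 gene of the 4 with a ratio near 1. All 3 members there lie wholly within the gene CENPP on the opposite strand, at 15.8 CPM in the TGFB1 library and 29.4 CPM in the untreated library. No source used here states whether counting used the strand, so the part of CENPP reads in these members' counts is not known.

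On chromosome 12, LUM (91102629 to 91111831) and DCN (91140484 to 91183123) are neighbours on the minus strand, beside KERA and EPYC, which encode proteoglycans of cornea and cartilage. DCN and LUM were both lower with TGFB1, while KERA had 3 UMIs in the TGFB1 library and 0 in the untreated library, and EPYC 17 and 43 UMIs. On chromosome 1, FMOD (203340628 to 203351758) and PRELP (203475828 to 203491352) lie near OPTC, which had 2 UMIs in each library. PODN lies elsewhere on chromosome 1 (53062052 to 53085502, plus strand), with 66.4% of its length overlapped by a gene on the opposite strand. BGN lies on the X chromosome (153494939 to 153509554, plus strand), with 3.95% overlapped by HAUS7 on the opposite strand.

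**Figure D5:**
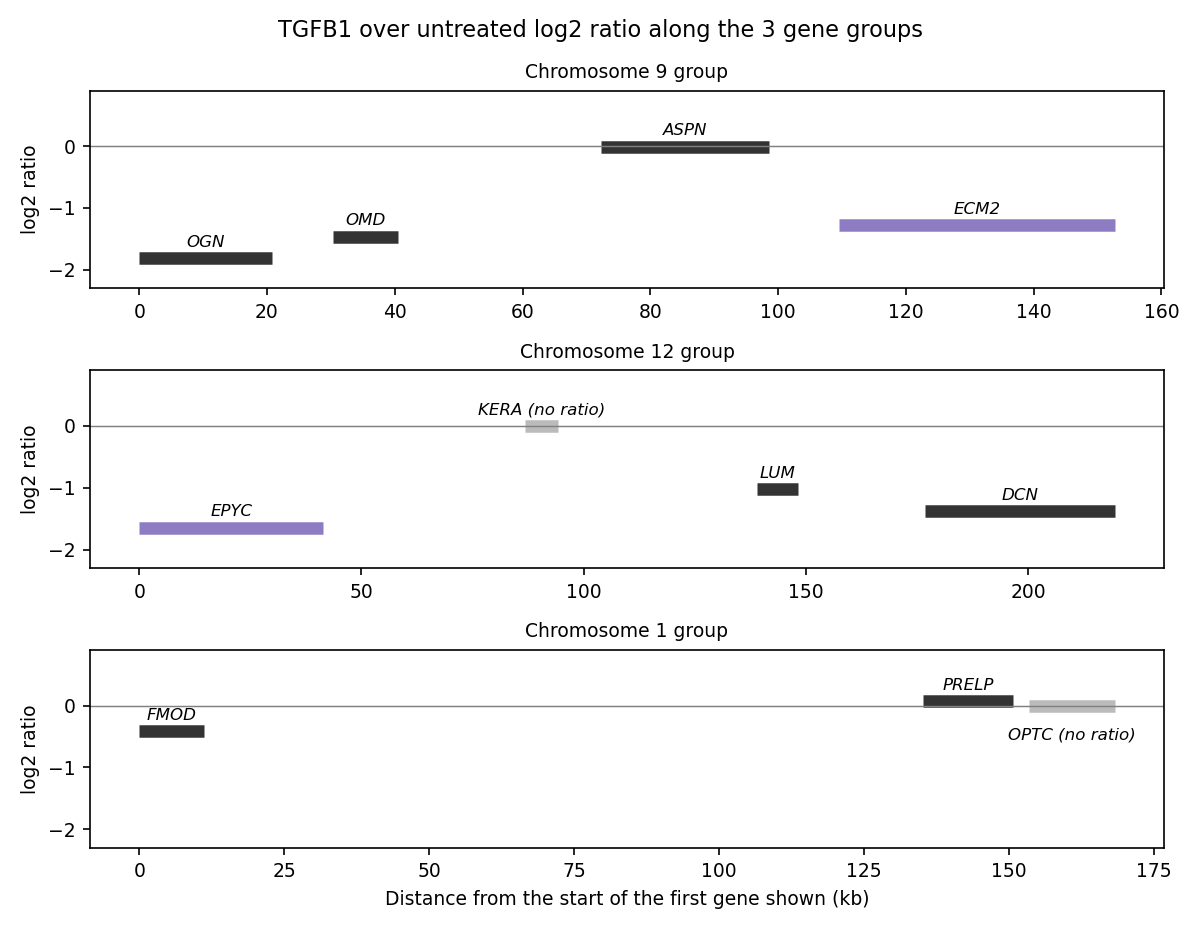
Log2 ratio of TGFB1 over untreated (vertical axis) for the genes of the 3 genomic groups, drawn to scale by distance from the first gene shown (horizontal axis, kb), with members in dark grey, other genes of the family in purple and genes with no ratio in light grey. On chromosome 9, ASPN stands at -0.01 between OMD at -1.46 and ECM2 at -1.27.

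The promoters of OGN and ASPN are shown because these chromosome 9 neighbours differed, and that of BGN because it was higher where OGN was lower. Sequences are the 250 bases before the gene's start from RefSeq (GRCh38.p14), 5′ to 3′ on the gene's strand; 6 of the 9 members had an entry, and DCN, LUM and OMD did not. Capitals mark the motifs searched on both strands: the SMAD-binding element CAGAC, the TATA box TATAAA, the AP-1 site TGACTCA, the GC box GGGCGG and the E-box CATCTG. The windows are chr9:92404700-92404949 on the minus strand for OGN, chr9:92482507-92482756 on the minus strand for ASPN and chrX:153494730-153494979 on the plus strand for BGN.
OGN: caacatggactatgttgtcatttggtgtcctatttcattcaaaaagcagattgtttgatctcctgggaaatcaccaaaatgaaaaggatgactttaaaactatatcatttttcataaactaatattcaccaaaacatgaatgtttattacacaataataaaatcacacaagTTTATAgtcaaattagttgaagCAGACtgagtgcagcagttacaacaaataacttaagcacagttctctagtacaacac
ASPN: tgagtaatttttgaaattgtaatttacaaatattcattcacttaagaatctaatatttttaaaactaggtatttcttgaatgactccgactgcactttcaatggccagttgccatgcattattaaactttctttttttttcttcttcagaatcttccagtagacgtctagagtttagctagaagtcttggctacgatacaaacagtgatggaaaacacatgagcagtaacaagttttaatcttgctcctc
BGN: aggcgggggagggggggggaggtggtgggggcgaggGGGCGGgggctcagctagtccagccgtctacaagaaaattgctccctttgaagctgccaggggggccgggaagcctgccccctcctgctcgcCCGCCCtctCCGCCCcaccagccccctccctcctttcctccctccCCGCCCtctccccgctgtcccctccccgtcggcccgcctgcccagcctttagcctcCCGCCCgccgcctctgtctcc
RefSeq holds a second OGN start, with a window at chr9:92404579-92404828, where the 2 matches lie at -200 and -178; the window shown is the one next to the GENCODE start. The OGN window shown holds a TATA box match at -79 and a SMAD-binding element match at -57, the ASPN window holds none of the 5 motifs and the BGN window holds 5 GC box matches. Among 35116 promoter windows of the same length, 10.7% hold the TATA box, 38.0% the SMAD-binding element, 42.6% the GC box, 12.2% the E-box and 4.20% the AP-1 site. The share of G and C was 31.2% in the OGN window, 32.4% in the ASPN window and 74.0% in the BGN window, against a median of 58% over all windows. Matches of letters are a description and not binding sites.

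Genes that build, cut or bind these proteins were read from lists chosen for their known roles, with earlier results of these data known. The counts below are to be read beside all 10928 genes at 5 CPM or more. Of these, 8.45% were at least 1.5-fold higher and 14.2% lower, and the median log2 ratio was -0.10. These shares hold for the main scaling. They were not computed with TMM or median-of-ratios scaling, so list counts given below with those scalings have no background beside them. Among enzymes of chondroitin and dermatan sulfate chains, 7 of the 25 at 5 CPM or more were at least 1.5-fold higher, 3 were lower and the median log2 ratio was 0.12. XYLT1, which adds the first sugar of the chain to the core protein, was at 299 CPM in the TGFB1 library and 38.6 CPM in the untreated library. CHST11, a chondroitin sulfotransferase, was at 77.1 and 28.2 CPM, and CHSY1, which lengthens the chain, at 52.2 and 28.8 CPM. The 3 lower genes were CSGALNACT1, which starts chondroitin chains, at 3.92 and 9.22 CPM, and DSEL, at 79.2 and 158 CPM, and CHST14, at 8.79 and 14.6 CPM, which both act on dermatan sulfate. With TMM or median-of-ratios scaling, 26 of these enzymes were counted, of which 10 were higher and 2 lower. These scalings move the median of all genes by 0.16 and 0.20.

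Of the enzymes listed for keratan sulfate chains, 2 of 9 were higher, B4GALT1 (272 CPM in the TGFB1 library and 113 CPM in the untreated library) and ST3GAL1 (79.6 and 44.5 CPM), none was lower, and the median log2 ratio was 0.11. Both enzymes also act on other sugar chains. Among collagens that the members bind, 4 of 14 were higher and 1 lower, with a median log2 ratio of 0.39. COL5A1, whose product starts collagen fibrils, was at 516 CPM in the TGFB1 library and 244 CPM in the untreated library, COL11A1, of the same subfamily, at 6.90 and 2.13 CPM, and the basement membrane gene COL4A1 at 71.5 and 35.6 CPM. COL14A1, a fibril-associated collagen, was at 3.94 and 9.15 CPM. With TMM or median-of-ratios scaling, 7 collagens were higher.

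None of the 10 proteases at 5 CPM or more was higher and 4 were lower, with a median log2 ratio of -0.41. The aggrecanase ADAMTS5 was at 3.11 CPM in the TGFB1 library and 27.3 CPM in the untreated library, ADAMTS1 at 27.1 and 132 CPM, the cathepsin gene CTSK at 84.3 and 147 CPM, and the collagenase gene MMP1 at 14.2 and 23.4 CPM. With TMM or median-of-ratios scaling 3 were lower, MMP1 no longer among them, and the medians were -0.25 and -0.22. Of 20 receptors and ligands, 8 were higher and 4 lower, with a median log2 ratio of 0.27. The matricellular gene CCN2 was at 3219 CPM in the TGFB1 library and 1015 CPM in the untreated library, and THBS1 at 4280 and 1948 CPM. TNXB, which encodes a tenascin that binds decorin, was at 2.76 and 18.9 CPM, BMP4, a growth factor of the TGF-beta family, at 4.26 and 24.5 CPM, the decorin receptor gene EGFR at 58.7 and 144 CPM, and the ion channel gene P2RX4 at 5.29 and 9.12 CPM. Of other leucine-rich proteoglycan genes, 3 of 9 reached 5 CPM: TSKU was higher, at 15.2 and 8.26 CPM, ECM2 lower, at 5.59 and 13.5 CPM, and PODNL1 within 1.5-fold, at 23.1 and 18.2 CPM.

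Across the 14 groups of library and cluster, the members' levels followed each other only in part. On log2(CPM + 1), Pearson's r was 0.80 for DCN and LUM, 0.77 for DCN and PODN, -0.41 for DCN and BGN and 0.72 for BGN and ASPN. Within one library's groups alone, DCN and LUM had 0.81 over the 9 TGFB1 groups and 0.34 over the 5 untreated groups, DCN and PODN 0.67 and 0.81, and BGN and ASPN 0.65 and 0.77. DCN and BGN had -0.09 over the TGFB1 groups and 0.30 over the untreated groups, so their value of -0.41 was not reached within either library. The groups share 2 libraries, their depth and the clustering, so these values are a description.

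By the same measure, among 6680 genes at 20 CPM or more, the genes most like DCN were AKR1C3, SPATA20, FTL and RNASET2, each at an r of 0.95. Those most like LUM were TLCD5 (0.97), TSPAN3, PCYOX1 and EIF4A2 (0.95 each), and those most like BGN were SPARC and CALD1 (0.93 each), IFRD1 and GARS1 (0.92 each). The closest to ASPN were PGRMC2 (0.88), TMEM167B (0.87), TRAM1 (0.86) and LBH (0.85), to OGN ERCC6, AIG1, SLC1A1 (0.91 each) and PLA2G12A (0.90), and to PODN RAB29 and CALCOCO1 (0.88 each), RBM43 (0.87) and SNX18 (0.86). TLCD5 followed LUM within both libraries, with an r of 0.96 over the TGFB1 groups and 0.99 over the untreated groups. SPATA20 followed DCN at 0.95 over the TGFB1 groups and 0.73 over the untreated groups.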

How the data were processed

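Both libraries were 10x single-cell RNA libraries of the same commercial cells, per the labels. The genome build GRCh38, Seurat and Cell Ranger 9.0.1 appear in the submitters' processing notes, with no roles stated. No source used here gives the gene annotation or the use of strand. The authors deposited 1 matrix of unnormalized UMI counts covering both libraries, and a cell table that gives, as the authors' values, UMI and gene counts, the percent of mitochondrial UMIs, the library and the cluster number. Cell sums equalled that table in all 20656 cells. No cell filter was added, no doublet caller was run, and no annotation of cell types was used. The lowest number of genes in a cell was 502 in the TGFB1 library and 505 in the untreated library.

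UMIs were summed to CPM with Python 3.11.15, numpy 2.4.6, scipy 1.17.1 and pandas 2.3.3. Sums carry exact Poisson 95% intervals, ratios exact conditional binomial (Clopper-Pearson) ones and shares of cells Clopper-Pearson ones; UMIs of 1 library are not independent replicates. A gene was counted at 5 CPM or more in either library and called at 1.5-fold. A gene that reached 5 CPM in 1 library only was thereby more likely to be called toward that library. Groups of library and cluster needed 50 cells. A count of 0 allows 3 UMIs, or 0.0144 CPM in the TGFB1 library and 0.0178 CPM in the untreated library. With 1 library per group, no p-value was computed; the labels name no separate cultures. TMM factors came from edgeR 4.0.16. The calculation was tested on simulated data. All 9 members were named, and from each list the genes with the 5 largest log2 ratios or all in a direction with 5 or fewer calls, of which some are given by count only. The members and lists were chosen with earlier results of these data known.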

Additional observations from a re-analysis of the deposited data

How the results depend on the processing

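DCN, LUM and OGN stayed at least 1.5-fold lower in the TGFB1 library with TMM, median-of-ratios and per-cell scaling, after thinning to 7500 UMIs, with cells of 1000 or more genes, and without dividing cells, cluster 5, clusters 7, 9 and 10 together or, as choices made after the data were seen, cluster 3 or cluster 10 alone. The number of members at least 1.5-fold higher, 0 in the main count, was 1 with TMM scaling and 1 with median-of-ratios scaling, and the gene was BGN. The share of all genes called with these 2 scalings was not computed. The median log2 ratio of the counted members, -0.70, was -0.55 with TMM, -0.51 with median-of-ratios, -0.75 without cells holding a MKI67 or TOP2A UMI and -0.56 without cluster 3. These medians moved by more than counting error; all stayed below 0. Of 98 single-member log2 ratios, 36 moved by more than counting error. Averaged within clusters 1, 7 and 9, DCN (-0.57) and LUM (-0.47) were short of 1.5-fold; OGN (-0.67) passed it only through cluster 9, with 5 and 8 UMIs, and had the opposite sign in cluster 1 (0.53). With a minimum of 1 CPM, 4 of 8 members were lower, and with 20 CPM, 2 of 4. The share of all genes called at these minima was not computed, so these 2 counts have no background beside them. The log2 ratio of PRELP, 0.08, was -1.81 without clusters 7, 9 and 10 and -1.73 without cluster 10. Of 252 counts and medians of the gene lists, 31 moved. Of 54 shares of cells, 48 moved with the thinning depth. No paired analysis was possible because each group was 1 library. FMOD, PRELP and OMD rest on 122 to 472 UMIs in each library and are limited by depth.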

Other observations

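Some cells lay in clusters made up mostly of the other library, in groups under the 50-cell minimum, and were looked at after the data were seen. The 46 TGFB1 cells of cluster 2, a mostly untreated cluster, had 1922 CPM of DCN and 743 CPM of LUM. The 16 untreated cells of cluster 0, a mostly TGFB1 cluster, had 982 CPM of DCN and 304 CPM of BGN. In cluster 10, PRELP was at 89.0 CPM in the 113 TGFB1 cells and 12.2 CPM, from 9 UMIs, in the 33 untreated cells, and ASPN at 40.3 CPM in the TGFB1 cells and 47.3 CPM in the untreated cells.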
